A study of Mus musculus with 6 samples.

Results

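The unfolded protein response is the programme by which a cell answers misfolded protein in the endoplasmic reticulum (ER). Described here are 10 of its genes out of 54532 in the table, picked by symbol: the stress sensors Ern1, Atf6 and Eif2ak3, the transcription factor gene Xbp1, the ER-associated degradation (ERAD) genes Herpud1, Sel1l, Syvn1, Edem1 and Derl1, and Ppp1r15a. They were measured by poly(A)-selected RNA sequencing of whole pancreatic islets from mice aged 7 weeks. The 3 control libraries came from mice of genotype Ythdc1flox/flox, and the 3 knockout libraries (bKO) from mice of genotype Ythdc1-betaKO, in which the m6A reader gene Ythdc1 is deleted in beta cells. The labels call the libraries independent biological replicates, and the sources used here name no Cre driver. The genotype labels of all 3 bKO libraries name Ythdc1, although the free text of replicates 2 and 3 names Ythdc2 and Ythdc3.

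Beta cells make insulin in the ER in large amounts, and the response is known to be active in them. IRE1 (gene Ern1), PERK (Eif2ak3) and ATF6 sit in the ER membrane and sense unfolded protein. IRE1 splices Xbp1 mRNA, whose product switches on ERAD and folding genes. PERK phosphorylates the translation factor eIF2alpha, which slows protein synthesis while favouring translation of ATF4. ATF6 is cut in the Golgi by the proteases of Mbtps1 and Mbtps2 and then acts as a transcription factor. ERAD recognises, extracts and ubiquitinates misfolded ER proteins for the proteasome.

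The promoters of 2 members carry a stress element of the kind that ATF6 and XBP1 are known to bind, and they are shown because both factors act downstream of the sensors. RefSeq promoter windows on GRCm38.p6, running from 250 bases before to 50 bases after the start site, were found for 8 members, that is for all but Atf6 and Derl1. They were searched on both strands for the ER stress element ERSE (CCAAT, then 9 bases of any kind, then CCACG), ERSE-II (ATTGG, 1 base of any kind, then CCACG), the UPRE core (TGACGTGG) and a C/EBP-ATF element (TGATGCAAT). ERSE and ERSE-II end in the same 5 letters, CCACG. Herpud1 held ERSE-II, Syvn1 held ERSE, and the other 6 held none of these letters in the window. Among all 32851 windows, 0.119% held ERSE, 0.0365% ERSE-II, 0.676% the UPRE core and 0.192% the C/EBP-ATF element. The 120 bases before the start are printed 5′ to 3′ on the plus strand, which is the strand of all 3 genes, with the match in capitals. They are Herpud1 at chr8:94386309-94386428, Syvn1 at chr19:6046456-6046575 and, for comparison, the ER chaperone gene Hspa5 at chr2:34771970-34772089.
Herpud1: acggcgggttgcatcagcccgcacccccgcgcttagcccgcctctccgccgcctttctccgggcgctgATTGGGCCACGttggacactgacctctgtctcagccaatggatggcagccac
Syvn1: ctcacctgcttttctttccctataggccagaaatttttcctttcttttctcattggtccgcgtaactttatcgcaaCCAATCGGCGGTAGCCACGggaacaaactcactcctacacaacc
Hspa5: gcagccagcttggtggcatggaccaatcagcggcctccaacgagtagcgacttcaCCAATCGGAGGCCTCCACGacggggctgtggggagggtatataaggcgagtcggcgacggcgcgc
The match begins 52 bases before the start in Herpud1, 44 before it in Syvn1 and 65 before it in Hspa5. A match describes the letters and does not show binding.

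The libraries held 16863329 to 18240339 reads, recovered from the deposited values, and each member had between 827 and 6519 reads in every library. Values are FPKM, the number of fragments divided by gene length and by a scaling factor of the library, so levels can be compared between genes. Ythdc1 was at 5.76, 6.46 and 6.18 FPKM in control and at 3.81, 3.79 and 3.87 in bKO. Markers of other cells moved with genotype too. Sums and calls of markers use the scaling of the deposited values unless another is named, and they depend on it. Whether sums of the groups overlap was not examined under another scaling. Calls of markers are limma adjusted p under 0.05, which 8.96% of all genes tested met as higher and 11.4% as lower. The summed level of 10 macrophage markers was 201 to 221 FPKM in control and 117 to 144 in bKO, with 5 of 9 tested lower and 0 higher. That of 8 plasma and B-cell markers was 6.25 to 11.1 and 2.09 to 3.51 FPKM, with 1 of 3 tested lower. That of 8 endothelial markers was 153 to 180 and 199.9 to 204 FPKM, with 4 of 8 higher. That of 4 delta- and PP-cell markers was 9796 to 11985 and 16229 to 19274 FPKM. Of these, Ppy and Pyy of PP cells were called higher, and Sst and Hhex of delta cells were not (limma adjusted p = 0.16 and 0.052). For Sst and Hhex too, all bKO libraries lay above all control libraries. With libraries scaled by their total reads both were called higher (limma adjusted p = 0.0097 and 0.014), beside 23.4% of all genes. The summed level of 8 beta-cell markers was 201005 to 222730 FPKM in control and 130927 to 140038 in bKO, with 5 of 8 lower and 1 higher. Most of this sum was Ins1 and Ins2. The 1 called higher was Ucn3, and Pdx1 and Iapp were not called (limma adjusted p = 0.34 and 0.16). Sums overlapped for 12 acinar markers (52.5 to 175 and 104 to 149 FPKM, Ptf1a at 0 throughout), 8 mesenchymal markers (52.1 to 56.3 and 52.1 to 56.8) and 6 alpha-cell markers (18429 to 22407 and 16783 to 20080). Of these, 0 of 9 tested acinar, 1 of 7 mesenchymal (Pdgfrb) and 1 of 6 alpha-cell markers (Irx2) were called higher, and 0 lower. Most of the mesenchymal sum was Rgs5 and most of the alpha-cell sum Gcg. In whole islets fewer cells of a type and less RNA per cell cannot be told apart, and the part of these shifts in the results was not tested.

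Of the 10 members, 5 were higher in bKO, 1 was lower and 4 did not pass the test (limma on log2(FPKM + 1), adjusted over 15717 genes, threshold 0.05). Ern1, Herpud1 and Ppp1r15a rose by 34.2% to 41.0% of the control mean, and Eif2ak3 and Sel1l by less. Over all genes tested 8.96% were called higher and 11.4% lower, beside 5 and 1 of the 10 members. The members' median difference was 0.20 on the log2(FPKM + 1) scale, and that of all genes -0.01. Scaling the libraries by their total reads moved the median of all genes to 0.13, and then 23.4% of genes were called higher and 4.69% lower, with 8 members higher and 0 lower. The 5 rises were called under both scalings, while the lower call of Xbp1 was lost. Over 15 fits, the main one and 14 alternatives, Ern1, Herpud1 and Ppp1r15a were called in all. Sel1l was called in 10, Eif2ak3 in 9 and Xbp1 in 6. In FPKM, all bKO libraries lay above all control libraries for 5 members and below them for 1, beside 18.5% and 21.6% of all genes.

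**Figure D1:**
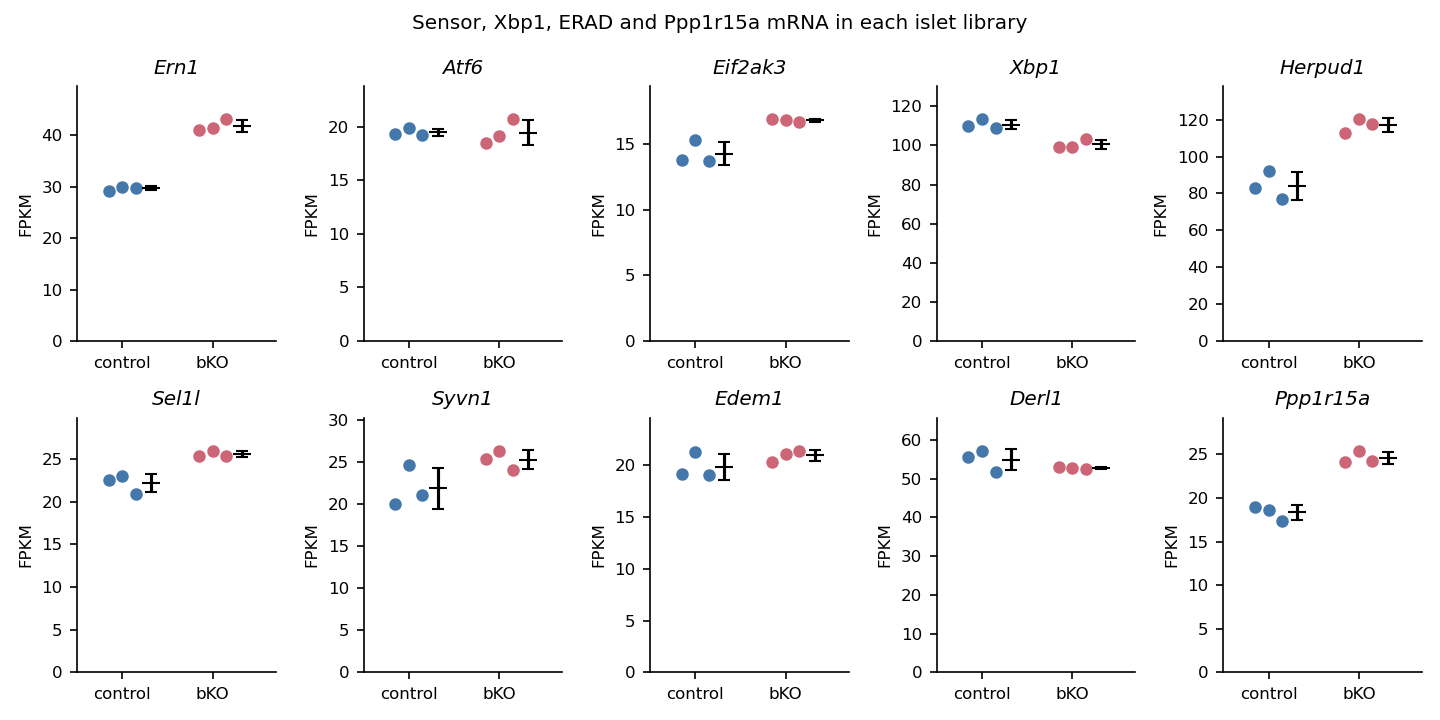
FPKM of each member in the 3 control and 3 bKO libraries, with points for single libraries and the black bar for mean ± SD. Every axis starts at 0. The groups do not overlap for Ern1, Eif2ak3, Xbp1, Herpud1, Sel1l and Ppp1r15a.

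In control islets the most abundant member was Xbp1, at 111 ± 2.4 FPKM (SD, n = 3), followed by Herpud1, Derl1 and Ern1. Below these, Sel1l, Syvn1, Edem1 and Atf6 had means between 19.5 and 22.1 FPKM, and neighbours in this order overlapped. Ppp1r15a at 18.3 ± 0.85 FPKM and Eif2ak3 at 14.2 ± 0.89 FPKM were the least abundant. In bKO the order at the top changed, with Herpud1 at 117 ± 3.8 FPKM above Xbp1 at 101 ± 2.2 FPKM, and no library of either overlapping the other. Ppp1r15a, at 24.6 ± 0.70 FPKM, came to overlap Sel1l and Syvn1 in bKO, and Eif2ak3 remained the lowest member.

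Of the 3 sensor genes, Ern1 and Eif2ak3 rose and Atf6 did not pass the test. Ern1 (ENSMUSG00000020715, chromosome 11, 106394650 to 106487852, GRCm38), which encodes the kinase and RNase IRE1, was at 29.2, 30.0 and 29.8 FPKM in control and at 41.0, 41.5 and 43.1 in bKO. All bKO libraries lay above all control libraries, by at least 10.9 FPKM, while the control libraries spanned 0.81 FPKM and the bKO libraries 2.17. The rise was 0.48 on the log2(FPKM + 1) scale (SE 0.037, 95% interval 0.39 to 0.57, limma adjusted p = 0.00052), place 989 of 15717 tested genes counted from the largest rise. Eif2ak3 (ENSMUSG00000031668, chromosome 6, 70844515 to 70905245), which encodes PERK, was at 13.7, 15.3 and 13.7 FPKM in control and at 16.9, 16.9 and 16.7 in bKO. The groups did not overlap, and the control libraries were spread more widely than the bKO libraries. The rise was 0.23 (SE 0.051, limma adjusted p = 0.024), and the call ended when control replicate 1 or 3, or any of the bKO libraries, was left out (0.20 to 0.23, limma adjusted p = 0.058 to 0.079). Over its 14 alternatives the adjusted p ran from 0.0024 to 0.079.

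Atf6 (ENSMUSG00000026663, chromosome 1, 170704674 to 170867771) was at 19.4, 19.9 and 19.2 FPKM in control and at 18.4, 19.1 and 20.7 in bKO. The bKO libraries fell on both sides of the control libraries. The difference was -0.00 with a 95% interval of -0.12 to 0.12 (limma adjusted p = 0.96), which lies below the whole interval of Ern1. Under scaling by total reads Atf6 was at 0.16 (limma adjusted p = 0.047), close to the 0.13 of the median gene. Its relative Atf6b, also an ER membrane factor, had 37.5 ± 0.90 FPKM in control against 36.7 ± 1.9 in bKO (limma adjusted p = 0.68).

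Xbp1 (ENSMUSG00000020484, chromosome 11, 5520659 to 5525893), the transcript that IRE1 splices, was at 109.9, 113 and 109 FPKM in control and at 99.2, 99.4 and 103 in bKO. All bKO libraries were lower than all control libraries. The fall was 0.14 on the log2 scale, to a difference of -9.11% in the mean (SE 0.036, limma adjusted p = 0.038). The difference was positive and not called under scaling by total reads (0.04, limma adjusted p = 0.44) and with quantile normalization (0.01, limma adjusted p = 0.83). The call also ended with no filter (-0.14, limma adjusted p = 0.058), and when control replicate 1 or 2, or any of the bKO libraries, was left out (-0.15 to -0.12, limma adjusted p = 0.057 to 0.12). The gene total does not separate spliced from unspliced Xbp1 mRNA, so it holds no measure of IRE1 activity.

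**Figure D2:**
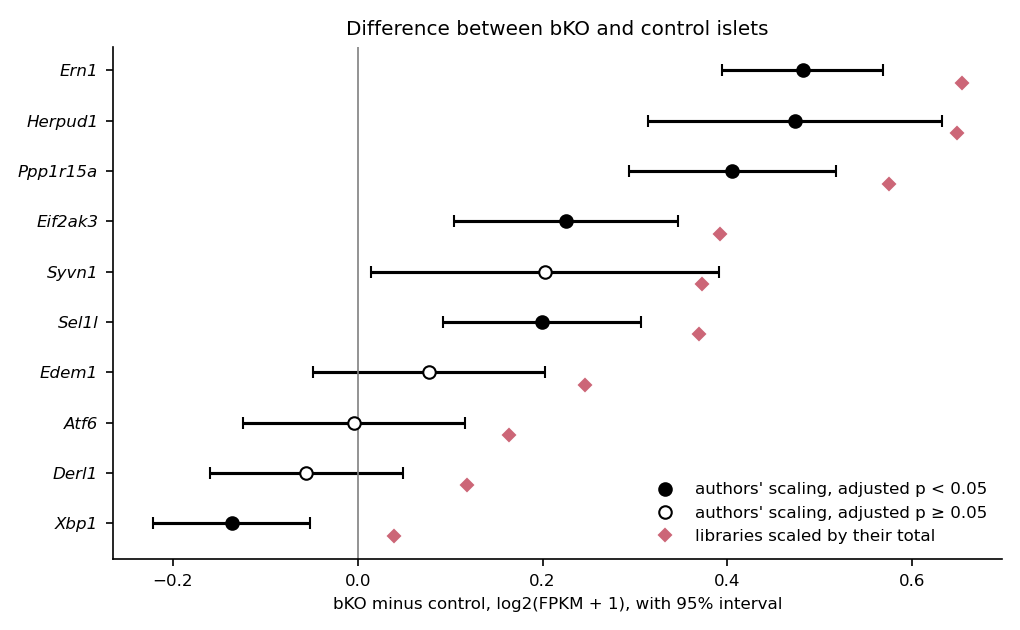
Difference of each member between bKO and control on the log2(FPKM + 1) scale, with circles and bars for the limma estimate and its 95% interval (filled where adjusted p is under 0.05) and diamonds for the estimate with libraries scaled by their total. Ern1, Herpud1 and Ppp1r15a stand at 0.41 to 0.48, Atf6 and Derl1 at -0.00 and -0.06, and each diamond lies to the right of its circle.

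Of the 5 ERAD members, Herpud1 and Sel1l rose, and Herpud1 had the largest difference. Herpud1 (ENSMUSG00000031770, chromosome 8, 94386438 to 94395377), an ER membrane protein with a ubiquitin-like domain that assembles the degradation complex, was at 82.9, 92.4 and 77.3 FPKM in control and at 113, 120.3 and 118 in bKO. The groups were separated by 20.5 FPKM, more than the range of 15.1 FPKM that the control libraries spanned. The rise was 0.47 (SE 0.067, 95% interval 0.31 to 0.63, limma adjusted p = 0.0046), and it was called in all 15 fits. Its promoter is the one printed above with ERSE-II. The antisense gene Gm15890 overlaps Herpud1, at no more than 2.10 FPKM in any library, and the labels do not say whether the counting used strand.

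Sel1l and Syvn1 encode the core of the HRD1 complex, the adaptor SEL1L and the ubiquitin ligase HRD1. Sel1l (ENSMUSG00000020964, chromosome 12, 91806043 to 91849157) was at 22.5, 23.0 and 21.0 FPKM in control and at 25.3, 26.0 and 25.4 in bKO. The groups did not overlap, and the rise was 0.20 (SE 0.045, limma adjusted p = 0.023). The call ended when control replicate 1, or any of the bKO libraries, was left out (0.19 to 0.21, limma adjusted p = 0.057 to 0.078), and over the 14 alternatives the adjusted p ran from 0.0014 to 0.078. Syvn1 (ENSMUSG00000024807, chromosome 19, 6046576 to 6053712) was at 20.0, 24.7 and 21.1 FPKM in control and at 25.4, 26.3 and 24.1 in bKO. Control replicate 2 lay above bKO replicate 3, so the groups overlapped. Its difference had the same size as that of Sel1l, 0.20, with a wider interval of 0.01 to 0.39 (limma adjusted p = 0.12), and it was called without control replicate 2 (0.29, limma adjusted p = 0.025), with voom on recovered reads (0.21, limma adjusted p = 0.016) and under scaling by total reads (0.37, limma adjusted p = 0.016). Syvn1 overlaps the protein-coding gene Mrpl49 on the other strand, which reached 13.8 FPKM, so its value is uncertain.

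Edem1 and Derl1 act at the entry and the exit of the pathway, EDEM1 in trimming the sugars that mark a misfolded glycoprotein and Derlin-1 in the membrane channel. Edem1 (ENSMUSG00000030104, chromosome 6, 108828641 to 108859356) was at 19.1, 21.3 and 19.1 FPKM in control and at 20.3, 21.1 and 21.4 in bKO. Derl1 (ENSMUSG00000022365, chromosome 15, 57869502 to 57892448) was at 55.6, 57.2 and 51.8 FPKM in control and at 53.1, 52.7 and 52.4 in bKO. The groups overlapped for both. The differences were 0.08 (95% interval -0.05 to 0.20, limma adjusted p = 0.35) for Edem1 and -0.06 (-0.16 to 0.05, limma adjusted p = 0.42) for Derl1. Under scaling by total reads Edem1 was called higher (0.25, limma adjusted p = 0.015) and Derl1 was at 0.12 (limma adjusted p = 0.066).

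Ppp1r15a (ENSMUSG00000040435, chromosome 7, 45522916 to 45526268) encodes GADD34, the stress-induced subunit that directs a phosphatase to eIF2alpha and so lifts the block PERK sets. It was at 19.0, 18.6 and 17.4 FPKM in control and at 24.1, 25.4 and 24.3 in bKO. All bKO libraries were higher, by at least 5.14 FPKM. The rise was 0.41 (SE 0.047, 95% interval 0.29 to 0.52, limma adjusted p = 0.0023), and it was called in all 15 fits. Ppp1r15b, which encodes the constitutive counterpart of GADD34 and was added after its values were seen, had 16.2 ± 0.67 FPKM in control against 15.9 ± 0.33 in bKO (limma adjusted p = 0.72). Tulp2 overlaps Ppp1r15a on the other strand, at no more than 0.91 FPKM.

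Ratios between 2 genes of 1 library do not depend on how libraries are scaled, so they were set beside the differences. The pairs were chosen after the values were seen, and the ratios are given without a test. Ern1 relative to Atf6 was 1.53 ± 0.025 in control and 2.16 ± 0.069 in bKO (SD, n = 3). Ern1 relative to Xbp1 was 0.266, 0.265 and 0.274 in the control libraries and 0.413, 0.417 and 0.418 in the bKO libraries, a ratio 1.55 times as high in bKO. The mRNA of the splicing enzyme was higher relative to its substrate in every bKO library than in any control library. Herpud1 relative to Xbp1 was 0.760 ± 0.052 in control and 1.16 ± 0.041 in bKO, and relative to Hspa5 it was 0.205 ± 0.016 and 0.319 ± 0.010. Sel1l relative to Syvn1 was 1.02 ± 0.0996 and 1.01 ± 0.036, with overlapping groups. Derl1 relative to Sel1l was 2.48 ± 0.011 in control and 2.06 ± 0.033 in bKO, with groups that did not overlap.

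**Figure D3:**
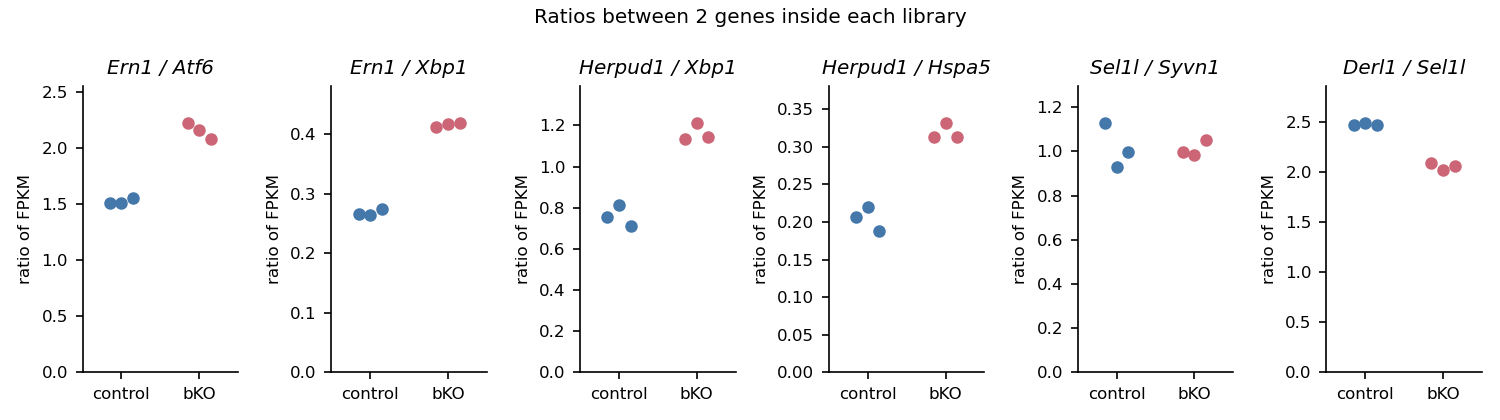
Ratio of the FPKM of 2 genes inside each library, 3 control and 3 bKO, with each axis starting at 0. The groups are apart for every pair shown except Sel1l relative to Syvn1, and Derl1 relative to Sel1l is the pair that is lower in bKO.

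The other genes of the pathway were read from lists of its branches. In the PERK and ATF4 branch, 9 of 17 tested genes rose and 0 fell, with a median of 0.30, beside 8.96% and 11.4% of all genes. Chac1, a glutathione-degrading enzyme and ATF4 target, was at 9.26, 9.36 and 7.46 FPKM in control and at 34.3, 36.9 and 31.3 in bKO. Ddit3, which encodes the stress factor CHOP, rose from 12.5 ± 0.57 to 27.0 ± 2.0 FPKM (log2 difference 1.05, limma adjusted p = 0.00024). Trib3, a pseudokinase gene that CHOP induces, rose by 1.79 and Sesn2 by 0.67 on the log2 scale. Atf4 itself was at 112, 118 and 104 FPKM in control and at 134, 147 and 129 in bKO (0.29, limma adjusted p = 0.021), a call that ended with no filter and without control replicate 1 or bKO replicate 1 or 2 (0.24 to 0.30, limma adjusted p = 0.051 to 0.062).

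ER chaperone and folding genes were lower or did not pass the test. Of 19 tested, 0 rose and 7 fell, with a median of -0.13, and 11 had all bKO libraries below all control libraries. Over all genes 8.96% rose, 11.4% fell and 21.6% had all bKO libraries below all control libraries. Ero1lb, an oxidase that supplies disulfide bonds in secretory cells, fell from 438 ± 13 to 206 ± 14 FPKM (log2 difference -1.08, limma adjusted p = 0.00015). Canx, calnexin, fell from 119 ± 2.0 to 97.2 ± 2.7 FPKM, and Calr, calreticulin, and Pdia6, a disulfide isomerase, fell by 0.22 and 0.25. Hspa5, the chaperone BiP and a standard marker of the response, was at 401, 419.7 and 410.3 FPKM in control and at 360.1, 363 and 376 in bKO. Its fall of 0.16 (limma adjusted p = 0.028) was called in 6 of 15 fits and was lost without each library but bKO replicate 3 (-0.18 to -0.15). Hsp90b1 was at 241 ± 13 and 231 ± 7.5 FPKM, and Dnajc3, the co-chaperone known as an inhibitor of PERK, at 99.0 ± 5.3 and 91.4 ± 4.0. Dnajb9, an XBP1 target, was at 108 ± 8.4 and 119.8 ± 7.2 FPKM (limma adjusted p = 0.19). Under scaling by total reads the list's median was 0.04 and Hspa5 was at 0.01, both below the 0.13 of the median gene. With that scaling 2 genes of the list, Ero1lb and Canx, fell and 1, Dnajb9, rose, beside 4.69% and 23.4% of all genes.

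Of 32 other ERAD genes, 2 rose and 6 fell, with a median of -0.00. That is 6.25% and 18.8% of the list, beside 8.96% and 11.4% of all genes. Rnf185, an ER ubiquitin ligase gene, rose from 14.2 ± 0.46 to 18.8 ± 1.5 FPKM. Derl2, a relative of Derl1, fell from 14.8 ± 0.68 to 11.5 ± 0.46 FPKM, and the calls of both were made in all 15 fits. The ubiquitin-conjugating enzyme gene Ube2j1 fell by 0.24 and the ligase gene March6 by 0.28, calls that ended under scaling by total reads, and that of March6 also without bKO replicate 1 (-0.26, limma adjusted p = 0.053). Under that scaling 13 of the 32 rose and 1, Derl2, fell, beside 23.4% and 4.69% of all genes. Of 21 genes of translocation into the ER and signal peptide removal, 1 rose and 8 fell, with a median of -0.09, beside the same shares of all genes. The signal peptidase subunit gene Spcs3 fell from 120.4 ± 3.0 to 91.5 ± 1.7 FPKM and the channel subunit gene Sec61g from 29.1 ± 1.0 to 22.7 ± 0.86 FPKM, also with total scaling, where 7 of the 21 rose and 2 fell. Sec61b and Srp14 fell by 0.26 and 0.19, calls that total scaling and quantile normalization ended.

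Of 9 tested relatives and processing factors of the sensors, 0 rose and 2 fell, beside 8.96% and 11.4% of all genes. Under scaling by total reads 2 of them rose and 0 fell, beside 23.4% and 4.69% of all genes. Rtcb, the ligase that joins the ends of Xbp1 mRNA after IRE1 cuts, fell from 35.7 ± 2.1 to 28.5 ± 2.0 FPKM (log2 difference -0.32, limma adjusted p = 0.015), a call that was lost with total scaling (-0.15, limma adjusted p = 0.11) and without bKO replicate 1 or 3 (-0.29 each, limma adjusted p = 0.059 and 0.053). Mbtps1, the protease gene that cuts ATF6, was at 17.0, 16.5 and 16.4 FPKM in control and at 14.9, 14.9 and 14.2 in bKO. Its call ended whichever library was left out (limma adjusted p = 0.050 to 0.092), and under scaling by total reads (-0.00, limma adjusted p = 0.97) and quantile normalization (-0.11, limma adjusted p = 0.12). Tmbim6, a suppressor of IRE1, and Creb3l1, an ATF6-like factor, did not pass the test (limma adjusted p = 0.15 and 0.19). Each was called in 2 of 15 fits, among them Creb3l1 as higher under scaling by total reads (0.32, limma adjusted p = 0.015). Of 4 tested mRNAs that IRE1 is known to cut in mouse cells, 1 rose and 0 fell, beside 8.96% and 11.4% of all genes. The 1 that rose was Pdgfrb, from 3.85 ± 0.096 to 5.17 ± 0.38 FPKM. Pdgfrb is also a mesenchymal marker. Hgsnat was at 13.6 ± 1.3 and 11.2 ± 0.77 FPKM, Col6a1 at 1.84 ± 0.043 and 2.36 ± 0.34, and Scara3 at 1.23 ± 0.35 and 1.48 ± 0.13.

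**Figure D4:**
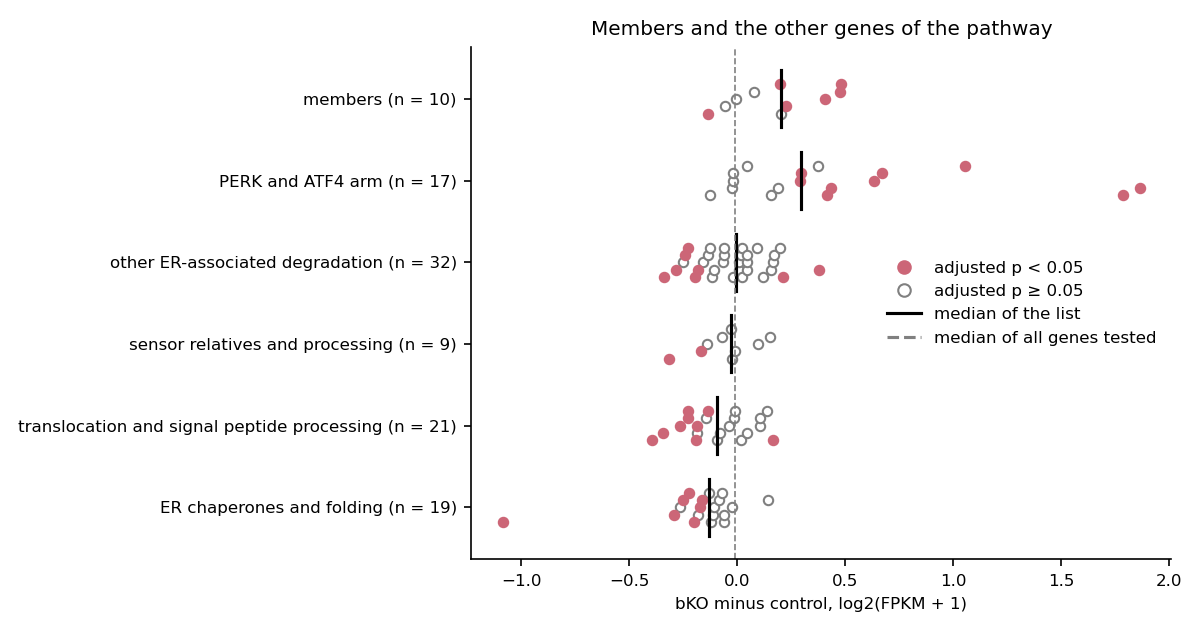
Difference between bKO and control on the log2(FPKM + 1) scale for each tested gene of the members and of 5 lists of the pathway, filled where adjusted p is under 0.05, with the median of each list as a black line and that of all genes tested as a dashed line. The medians are 0.30 for the PERK and ATF4 arm, 0.20 for the members and -0.13 for ER chaperones and folding.

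Over the 6 libraries, the pattern of Ern1 was most like those of Tmod2, Aldh1a3 and Ksr2 among 6842 other protein-coding genes with a mean of at least 5 FPKM over the 6 libraries (predicted and Rik genes left out), with Pearson r of 0.9996, 0.9992 and 0.9984 on log2(FPKM + 1). Aldh1a3 met that minimum through the bKO libraries, with 0.552 ± 0.13 FPKM in control and 16.0 ± 4.3 in bKO. Tmod2 had a mean of 24.9 ± 0.46 FPKM in control against 65.2 ± 5.4 in bKO. The pattern of Xbp1 was most like those of Shc1, Prkacb and Castor2, with r of 0.9978, 0.9966 and 0.9960, and Shc1 was at 32.6 ± 1.5 and 25.8 ± 1.4 FPKM. These values pool both groups and so mostly restate the difference between them, and 293 genes for Ern1 and 269 for Xbp1 had r above 0.95.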

How the data were processed

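The table deposited by the authors holds FPKM for each gene and library. HISAT2 2.0.5 aligned the reads to GRCm38 and featureCounts 1.5.0-p3 counted them, per the labels, and the submitters' processing notes also name CASAVA and, with no role given, a differential expression package. Strand setting, multi-mapping and annotation release are not given in the sources used here. Every value above 0, times gene length and 1 factor per library, gave a whole read within 0.01, so reads were recovered. The factors match median-of-ratios scaling, not library totals. The table had 0 columns of other samples.

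The other steps were run here. The 15717 genes that reached 0.5 FPKM in 3 or more libraries were fitted with limma 3.58.1 (R 4.3.3) on log2(FPKM + 1) with an intensity trend, bKO against control without covariates, with Benjamini-Hochberg adjustment. A fold on this scale understates the change of low genes. The fit was tested on simulated reads. Other steps used Python 3.11.15, pandas 2.3.3 and matplotlib 3.10.9. Positions are those of the table, overlaps were read from GENCODE vM21 and promoters from RefSeq. Ddit3 stands on 2 gene IDs, and the one with more reads was used.

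The members and lists were chosen with earlier results of these data known. Named genes are the members, Ythdc1, the 4 genes with the smallest adjusted p of each other list, 8 standard genes of the response, and the 3 genes most like Ern1 and Xbp1. Alternatives were scaling by library totals, quantile normalization, no filter, FPKM of at least 1, pseudocounts of 0.1 and 0.5, voom on recovered reads, a replicate block and leaving out each library.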

Additional observations from a re-analysis of the deposited data

How the results depend on the processing

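Over 14 alternatives, the 10 members kept their call in 115 of 140 comparisons, where uncalled differences near 0, as of Atf6 and Derl1, could still change sign. A call was lost in 18, gained in 4, and joined to a change of sign in 3, which were Atf6 (0.16) and Xbp1 (0.039) with library totals and Xbp1 (0.012) with quantile normalization. Of the other named genes, Hspa5 with library totals (0.0135) and Calr with quantile normalization (0.0046) lost their call and changed sign. Uncalled differences could change sign here too, as those of Tmbim6 (0.033) and Hsp90b1 (0.11) with library totals. Relative to the median gene, Xbp1 stood at -0.12 with the authors' scaling, -0.09 with library totals and 0.03 with quantile normalization. With library totals 3684 genes were higher and 737 lower, with 8 and 0 members and 37 and 5 other pathway genes, against 1408 and 1784, 5 and 1, and 13 and 23 with the authors' scaling. Among the named genes, quantile normalization ended the lower calls of Xbp1, Calr, Mbtps1, Pdia6, Sec61b, Srp14 and Hspa5. With no filter those of Xbp1 and Hspa5 were lost. Leaving out 1 library gave 852 to 1179 genes higher and 1037 to 1604 lower, 3 to 6 members higher and 0 to 1 lower, and 10 to 14 other pathway genes higher and 10 to 22 lower. The lowest count of genes higher came without bKO replicate 1 and the lowest count of genes lower without control replicate 1. The cause of these shifts was not tested, and leaving out a library leaves fewer samples. The replicate numbers pair nothing in the labels, and same-numbered libraries did not deviate together (r of -0.052, -0.014 and -0.073). With the replicate number as a block 925 genes were higher and 1152 lower, with 3 members higher and 0 lower and 13 other pathway genes lower. Other pathway genes were also called higher with the block, among them Chac1, Ddit3, Trib3 and Sesn2. Among the named genes, the block ended the calls of Eif2ak3, Sel1l, Xbp1, Hspa5 and Mbtps1. Every member had at least 827 reads in each library.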

Other observations

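Of the genes on the pathway lists, 5 did not reach the filter on low values and were not tested. Ern2, the gut form of IRE1, had 0.0261 ± 0.045 FPKM in control and 0.0243 ± 0.011 in bKO (SD, n = 3). The ATF6-like factor genes Creb3l3 and Creb3l4 were at 0.179 ± 0.074 and 0.162 ± 0.076 FPKM, and at 0.401 ± 0.26 and 0.406 ± 0.067 FPKM. Slc7a11, a cystine transporter gene known as an ATF4 target, was at 0.0134, 0.0333 and 0.0266 FPKM in control and at 0.494, 0.420 and 0.501 in bKO, with no overlap of the groups. Bloc1s1, an mRNA that IRE1 is known to cut, was at 0.241, 0.0451 and 0.144 FPKM in control and at 0.768, 0.471 and 1.13 in bKO, again without overlap and from few reads.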
